A study of Mus musculus with 6 samples.

Results

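Messenger RNA of 10 circadian clock genes was compared between brain samples of Kdm6a deficient and wild-type mice. The 10 genes (Arntl, Clock, Per1, Per2, Per3, Cry1, Cry2, Nr1d1, Dbp and Hlf) were chosen by symbol from the 43346 rows of the deposited count table, and all 10 were among the 15030 genes with enough counts to be tested. The study sequenced brain RNA from 6 adult C57BL/6 males, of which 3 were Kdm6a deficient and 3 were their wild-type littermates, with 1 library per mouse. Deficient mice were bred from Kdm6a-LoxP females and Thy1-Cre males, and Thy1 promoters drive Cre mainly in neurons. Which cells lost or kept Kdm6a was not measured. Both groups came from this cross, and the sources used here do not say whether the wild-type mice carried Cre or a LoxP allele, or at what time of day the brains were taken.

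The mammalian clock is a loop of transcription that runs in most cells, the brain's among them. Arntl (also called Bmal1) and Clock, or its relative Npas2, encode a pair of activators that bind E-boxes and switch on the Per and Cry genes, Nr1d1 and Dbp. The PER and CRY proteins then block the activators, while NR1D1 (REV-ERB alpha) represses Arntl, so Arntl transcripts peak at the opposite time of day from those of Dbp, Nr1d1 and the Per genes. Cry1 peaks later than the Per genes. In brain the master pacemaker is the suprachiasmatic nucleus, a small part of the hypothalamus, and RNA of a larger piece of brain comes mostly from other regions.

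The libraries held 18542590 to 24531408 counts, and each of the 10 genes had at least 104 counts in every library. Kdm6a stood at 24.2 ± 1.68 CPM in deficient and 34.6 ± 0.370 CPM in wild-type mice (SD, n = 3 each; edgeR adjusted p = 0.0078), with every deficient library below every wild-type one. CPM are counts scaled to the effective size of the library. Neuron markers summed to 7295 to 7734 CPM in the 6 libraries. Of the liver list, Alb was at or under 0.0446 CPM, while Ttr, which is also on the choroid plexus list, stood at 596 to 1129 CPM. One library stood apart: the 7 pituitary hormone and lineage markers summed to 1406 CPM in wild-type mouse 3, against 3.47 to 16.6 CPM in the other 5, with growth hormone (Gh) at 998 CPM. Results that turn on this library are therefore given with and without it, and the part of the pituitary transcripts in them was not tested. The counts of genes without it were chosen after the data were seen. In bulk RNA, fewer cells of a type and less RNA per cell cannot be told apart.

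The promoters were searched for the elements through which clock factors bind. For 9 of the 10 genes RefSeq promoter windows were at hand (build GRCm38.p6, from 250 bases before to 50 after a start), and Per2 had none. They were searched on both strands for the E-box CACGTG, the related E-prime box CACGTT, the D-box TTATGTAA or TTACGTAA bound by DBP and HLF, the core of the element bound by NR1D1 and its relatives (TAGGTCA or TGGGTCA, called RORE), and the cyclic AMP response element TGACGTCA (CRE). An E-box was found in 2 of the 9 genes (Cry1 and Per1) and in 7.15% of all 32851 windows. The E-prime box was found in 3 (Cry1, Cry2 and Nr1d1; 4.68% of all windows), the D-box in Per3 alone (1.06%), the RORE core in Arntl alone (6.45%) and the CRE in Hlf alone (1.79%). In Arntl the match lies just after a start, in the second of its windows. A gene was counted if any of its windows matched, and Clock, Arntl and Per1 had more windows than the others. Counts of genes and shares of windows are therefore not on the same scale. Clock and Dbp held none of these letters in their windows. The stretches before the starts of 4 repressor genes are printed 5′ to 3′ on the strand of the gene because they carry E-box, E-prime box or D-box matches, which the capitals mark. That of Per1 (E-box 166 bases before the start) is chr11:69098699-69098947 on the plus strand, before a start that lies inside the annotated span of the gene. Those of Per3 (D-boxes 205 and 158 bases before the start) at chr4:151044666-151044915, Cry1 (E-prime box 79 and E-box 60 bases before) at chr10:85185065-85185304 and Cry2 (E-prime box 166 bases before) at chr2:92434070-92434319 are on the minus strand.
Per1: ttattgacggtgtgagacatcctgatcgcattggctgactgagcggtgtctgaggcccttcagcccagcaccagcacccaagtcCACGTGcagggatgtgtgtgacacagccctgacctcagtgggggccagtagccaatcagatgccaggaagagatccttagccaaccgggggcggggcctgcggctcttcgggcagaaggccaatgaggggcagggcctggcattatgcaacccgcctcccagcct
Per3: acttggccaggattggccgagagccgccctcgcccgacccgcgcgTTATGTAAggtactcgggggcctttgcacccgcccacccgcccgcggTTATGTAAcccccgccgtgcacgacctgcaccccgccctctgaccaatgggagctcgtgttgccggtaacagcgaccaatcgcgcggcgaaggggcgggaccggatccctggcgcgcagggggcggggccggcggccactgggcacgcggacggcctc
Cry1: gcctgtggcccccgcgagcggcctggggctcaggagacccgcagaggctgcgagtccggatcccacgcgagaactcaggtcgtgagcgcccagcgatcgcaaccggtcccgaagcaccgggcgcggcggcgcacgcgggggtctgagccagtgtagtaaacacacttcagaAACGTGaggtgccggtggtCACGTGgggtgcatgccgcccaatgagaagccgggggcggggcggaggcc
Cry2: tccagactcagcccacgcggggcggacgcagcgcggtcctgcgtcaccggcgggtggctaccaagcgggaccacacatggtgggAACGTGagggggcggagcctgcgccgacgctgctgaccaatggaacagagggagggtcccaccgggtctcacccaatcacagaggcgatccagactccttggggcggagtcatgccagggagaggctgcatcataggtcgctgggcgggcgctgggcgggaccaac

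The comparison asked whether transcripts of the clock differ when Kdm6a, a demethylase of histone H3 lysine 27, is deficient. None of the 10 genes passed 5% FDR, against 0.0466% of all genes tested (7 of 15030, with 0.0333% lower and 0.0133% higher in deficient mice; edgeR, with the smallest adjusted p of the 10 at 0.59 for Hlf). DESeq2 and limma-voom also called 0 of the 10. At an unadjusted edgeR p under 0.05 there were 5 of the 10 with lower values in the deficient mice, Arntl, Per2, Cry1, Cry2 and Hlf, against 3.30% of all genes tested, and 0 with higher values, against 2.56%. The log2 fold changes were negative for 7 genes and positive for 3, with a median of -0.14, beside a median of 0.00 over all genes. The positive ones were those of Per3, Nr1d1 and Dbp. The count of 5 was 4 without deficient mouse 1 and 2 without deficient mouse 2, deficient mouse 3 or wild-type mouse 2. It fell to 1 when wild-type mouse 1 was left out. Nr1d1 had higher values at that level without deficient mouse 2. No share of all genes was taken for these fits, so their counts cannot be set against one. Without wild-type mouse 3 the lower genes were again the same 5 (4.96% of all genes). In that fit 2 genes had higher values at that level, Nr1d1 and Dbp (3.27% of all genes).

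**Figure D1:**
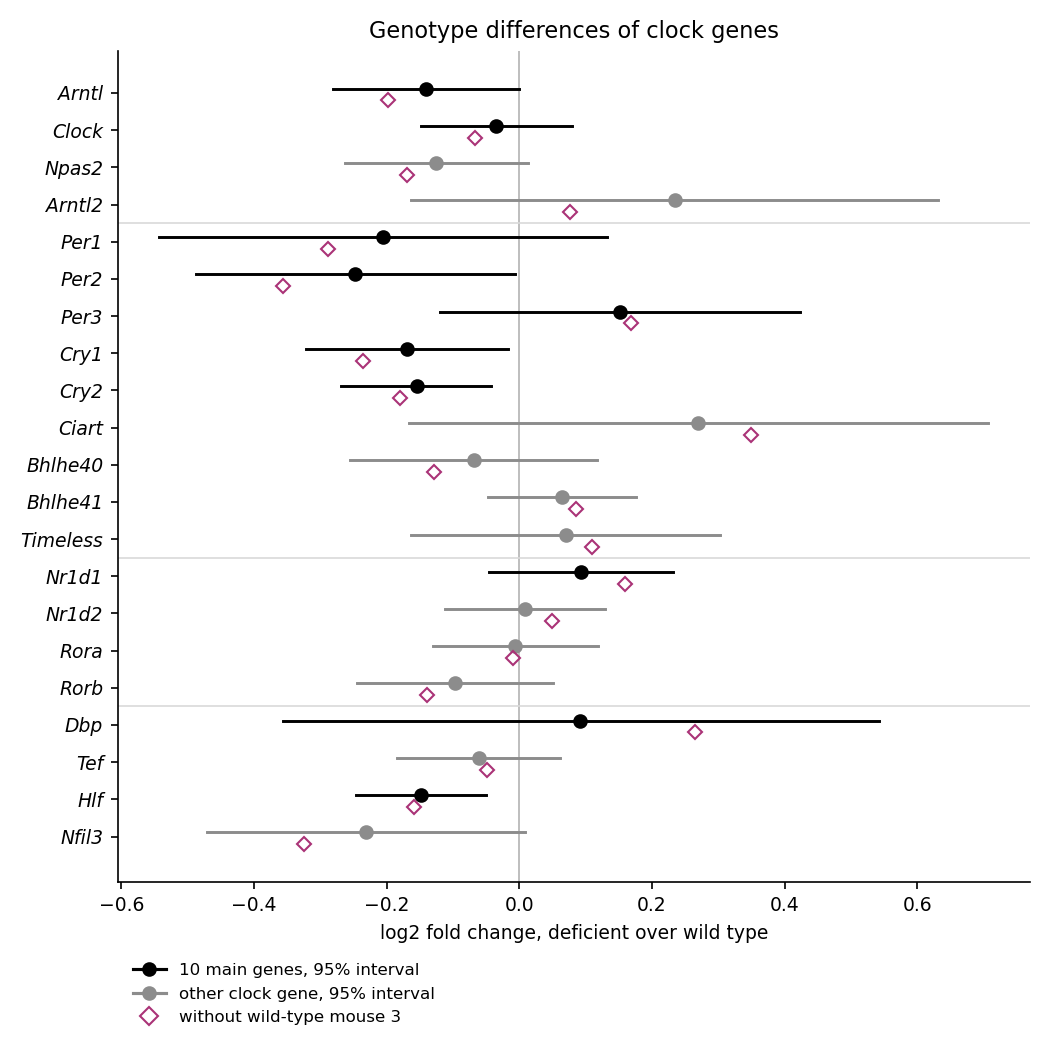
Log2 fold changes (horizontal axis, deficient over wild type) of the 10 clock genes and other genes of the loop, from activators at the top through repressors and nuclear receptors to bZIP output factors. Filled circles with lines are edgeR estimates from 6 mice with 95% intervals, in black for the 10 main genes and grey for the others; diamonds are the estimates without wild-type mouse 3. Without that mouse Per2 moved from -0.25 to -0.36 and Dbp from 0.09 to 0.27.

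Activators came first. Arntl (chromosome 7, 113207465 to 113314126, plus strand, GRCm38) stood at 37.8, 35.5 and 34.0 CPM in deficient mice 1, 2 and 3 and at 40.5, 41.5 and 36.4 CPM in wild-type mice 1, 2 and 3. Wild-type mice 1 and 2 were the highest and deficient mouse 3 the lowest, and the groups overlapped because wild-type mouse 3 lay below deficient mouse 1. The means were 35.8 ± 1.89 against 39.5 ± 2.70 CPM (SD, n = 3 each), a log2 fold change of -0.14 (SE 0.07, 95% interval -0.28 to -0.00, edgeR adjusted p = 0.85). With 1 mouse left out it ran from -0.20, without wild-type mouse 3 (edgeR adjusted p = 0.393, SE 0.07), to -0.11. Npas2, which can stand in for Clock in forebrain neurons, was likewise lowest in deficient mouse 3 (34.7 CPM) and was highest in wild-type mouse 1 (43.0 CPM), with a log2 fold change of -0.12 (edgeR adjusted p = 0.861, SE 0.06). Clock (chromosome 5, 76209868 to 76304792, minus strand), whose transcript cycles little, had 108, 120.3 and 116 CPM in deficient mice and 119, 121 and 112 CPM in wild-type mice. Its groups overlapped throughout, and its log2 fold change of -0.03 (SE 0.05) had an interval from -0.15 to 0.08. Leaving out 1 mouse gave values near 0, from -0.07 without deficient mouse 2 or wild-type mouse 3 to -0.01 without wild-type mouse 2 and 0.00 without deficient mouse 1. Arntl2, a relative of Arntl, was scarce at 2.76 to 4.87 CPM, with a log2 fold change of 0.23 (edgeR adjusted p = 0.911, SE 0.19).

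Among the Per repressors, Per2 had the largest difference in size and Per3 the opposite sign. Per2 (chromosome 1, 91415982 to 91459324, minus strand) stood at 37.6, 40.2 and 35.2 CPM in deficient mice 1, 2 and 3 and at 51.7, 44.6 and 38.1 CPM in wild-type mice 1, 2 and 3. Only wild-type mouse 3 lay within the deficient range. The log2 fold change was -0.25 (SE 0.11, 95% interval -0.49 to -0.01, edgeR adjusted p = 0.844), and leaving out 1 wild-type mouse moved it either way, to -0.36 without mouse 3 (edgeR adjusted p = 0.161, SE 0.08) and to -0.13 without mouse 1 (edgeR adjusted p = 1). Per1 (chromosome 11, 69095217 to 69109960, plus strand), which neurons also switch on with activity, stood at 86.0, 67.4 and 84.3 CPM in deficient mice, against 105, 87.8 and 80.8 CPM in wild-type mice. Deficient mouse 2 was far below the other deficient mice and wild-type mouse 1 far above the other wild-type mice. Its log2 fold change was -0.21 (SE 0.14, 95% interval -0.54 to 0.13, edgeR adjusted p = 0.903), and it was -0.09 without wild-type mouse 1 and -0.10 without deficient mouse 2. Per3 (chromosome 4, 151003652 to 151044665, minus strand), whose printed promoter holds both D-boxes, stood at 7.63, 6.01 and 7.44 CPM in deficient mice, against 6.79, 5.63 and 6.44 CPM in wild-type mice. Deficient mouse 2 and wild-type mouse 2 were each the lowest of their group, and the groups overlapped. The Per3 log2 fold change was 0.15 (SE 0.13, 95% interval -0.12 to 0.42, edgeR adjusted p = 0.92), on 104 to 171 counts per library. It was 0.08 when either deficient mouse 1 or wild-type mouse 2 was left out, and 0.26 without deficient mouse 2.

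Both Cry genes, which encode the most potent repressors of the loop, were lower in every deficient mouse than in any wild-type mouse. Cry1 (chromosome 10, 85131700 to 85185064, minus strand) stood at 25.3, 25.2 and 24.6 CPM in deficient mice 1, 2 and 3, almost without spread, and at 30.2, 28.8 and 25.6 CPM in wild-type mice 1, 2 and 3. Wild-type mouse 3 lay just above the deficient mice. The log2 fold change was -0.17 (SE 0.07, 95% interval -0.32 to -0.02, edgeR adjusted p = 0.799), and ran from -0.24 without wild-type mouse 3 (edgeR adjusted p = 0.338) to -0.12 when wild-type mouse 1 was left out (edgeR adjusted p = 1). Cry2 (chromosome 2, 92403646 to 92434043, minus strand) stood at 102, 94.96 and 104 CPM in deficient mice, against 117, 109.9 and 108 CPM in wild-type mice. The gap between the groups was set by wild-type mouse 3 and deficient mouse 3, and the log2 fold change was -0.16 (SE 0.05, 95% interval -0.27 to -0.04, edgeR adjusted p = 0.704). Groups without overlap and lower in the deficient mice were found for 3 of the 10 genes (Cry1, Cry2 and Hlf), against 5.49% of all genes tested, and groups without overlap and higher for 0, against 5.70%. With 3 mice in each group an exact two-sided permutation test cannot go below 0.1, the value these 3 genes reached. Without wild-type mouse 3 the counts were 6 lower (12.8% of all genes), with Arntl, Per1 and Per2 added, and 1 higher, Nr1d1 (12.9%).

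Other repressors of the loop had log2 fold changes of either sign, and their groups overlapped. Ciart, an E-box repressor, had 1.87 to 2.30 CPM in deficient and 1.38 to 1.90 CPM in wild-type mice (log2 fold change 0.27, edgeR adjusted p = 0.909, SE 0.20), and a pseudogene is 96.7% identical to it. Bhlhe40 and Bhlhe41, which encode basic helix-loop-helix repressors of E-boxes, had log2 fold changes of -0.07 (SE 0.08) and 0.06 (SE 0.05). Timeless, better known for DNA replication, stood at 0.07 (SE 0.11).

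**Figure D2:**
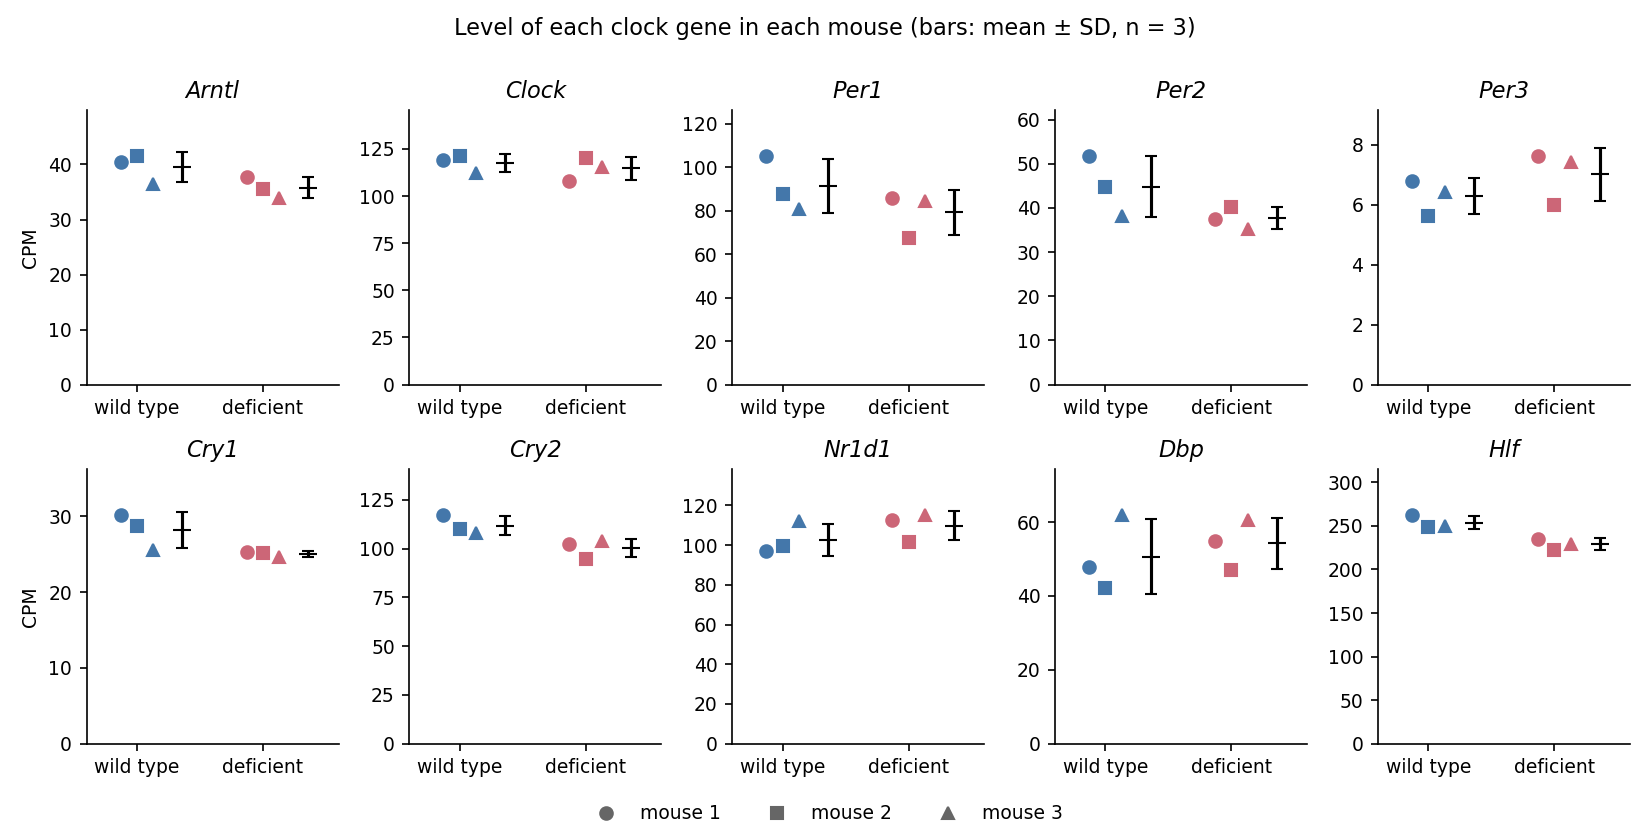
Level in CPM (vertical axes, from 0) of each of the 10 clock genes in the 3 wild-type (blue) and 3 deficient (red) mice, with the mouse number given by the marker shape and the mean ± SD in black. Cry1, Cry2 and Hlf show no overlap between genotypes; for Dbp, wild-type mouse 3 and deficient mouse 3 are the highest at 61.9 and 60.7 CPM.

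Nr1d1 (chromosome 11, 98767932 to 98775333, minus strand) stood at 113, 101 and 115 CPM in deficient mice 1, 2 and 3 and at 96.8, 99.5 and 112 CPM in wild-type mice 1, 2 and 3. Its order resembled that of Arntl turned over, with wild-type mice 1 and 2 lowest and deficient mouse 3 highest. Its log2 fold change was 0.09 (SE 0.06, 95% interval -0.05 to 0.23, edgeR adjusted p = 0.901), and 0.16 without wild-type mouse 3 (edgeR adjusted p = 0.496). It was 0.15 without deficient mouse 2, 0.06 without deficient mouse 3 and 0.05 when wild-type mouse 1 was left out. Its exons share 8.55% of their bases with Thra on the opposite strand, a far more abundant gene, and reads there cannot be assigned without a strand setting. Thra had a log2 fold change of -0.02 (SE 0.05). Nr1d2, the relative that represses the same elements, had a log2 fold change of 0.01 (SE 0.06), and its transcript has a near-identical copy (96.1%). Rora and Rorb, which encode activating receptors of these elements, had log2 fold changes of -0.01 (SE 0.06) and -0.10 (SE 0.07), with edgeR adjusted p of 0.996 and 0.901.

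Dbp and Hlf encode related bZIP factors that bind D-boxes and pass the rhythm on to other genes, and their values differed in pattern. Dbp (chromosome 7, 45705088 to 45710203, plus strand) stood at 54.9, 47.1 and 60.7 CPM in deficient mice 1, 2 and 3 and at 47.7, 42.1 and 61.9 CPM in wild-type mice 1, 2 and 3. The highest wild-type value was 1.47 times the lowest, the widest span among wild-type mice of the 10 genes, and the deficient mice lay wholly inside the wild-type range. Its log2 fold change was 0.09 (SE 0.18, 95% interval -0.36 to 0.54, edgeR adjusted p = 0.975), and it went to 0.27 when wild-type mouse 3 was left out and to -0.02 when wild-type mouse 2 was. It was 0.19 without deficient mouse 2, 0.01 without deficient mouse 3 and 0.05 when wild-type mouse 1 was left out. Of the Dbp exon bases 18.0% are shared with Sphk2 on the opposite strand, which stood at 29.6 to 32.6 CPM in the 6 mice and so varied less. Hlf (chromosome 11, 90336536 to 90390895, minus strand) stood at 235, 222 and 229 CPM in deficient mice, against 262, 249 and 249.8 CPM in wild-type mice. The groups did not overlap, and the highest value was 1.06 times the lowest in each. The means were 229 ± 6.62 against 254 ± 7.66 CPM (SD, n = 3 each), a log2 fold change of -0.15 (SE 0.05, 95% interval -0.25 to -0.05, edgeR adjusted p = 0.59). Hlf ranked 154 among the 15030 genes by p, the highest rank of the 10. Tef completes this bZIP family, and its log2 fold change was -0.06 (SE 0.06), while Nfil3, which represses D-boxes, had one of -0.23 (edgeR adjusted p = 0.856, SE 0.11) with wild-type mouse 1 highest at 12.9 CPM.

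Among the 10 genes, Hlf and Nr1d1 had the highest levels per kilobase of exon, the scale on which genes can be compared. In wild-type mice Hlf stood at 38.0 ± 1.15 and Nr1d1 at 33.4 ± 2.62 CPM per kb (SD, n = 3 each). Cry2 (17.7 ± 0.764), Dbp (16.9 ± 3.40) and Per1 (16.2 ± 2.22 CPM per kb) followed, and the ranges of neighbours in this trio overlapped. Clock (8.56 ± 0.343), Cry1 (8.44 ± 0.701) and Per2 (7.65 ± 1.17 CPM per kb) came next, again with overlapping neighbours. Arntl was at 5.25 ± 0.359 and Per3 at 0.654 ± 0.0618 CPM per kb, both apart from the gene above. In deficient mice Nr1d1 (35.7 ± 2.38) and Hlf (34.3 ± 0.991 CPM per kb) overlapped, and Dbp (18.1 ± 2.28) stood beside Cry2 (15.9 ± 0.750 CPM per kb). The lengths count every annotated exon base of a gene, so a gene with long rare exons, as may be the case for Clock with 13.7 kb, would be placed too low.

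**Figure D3:**
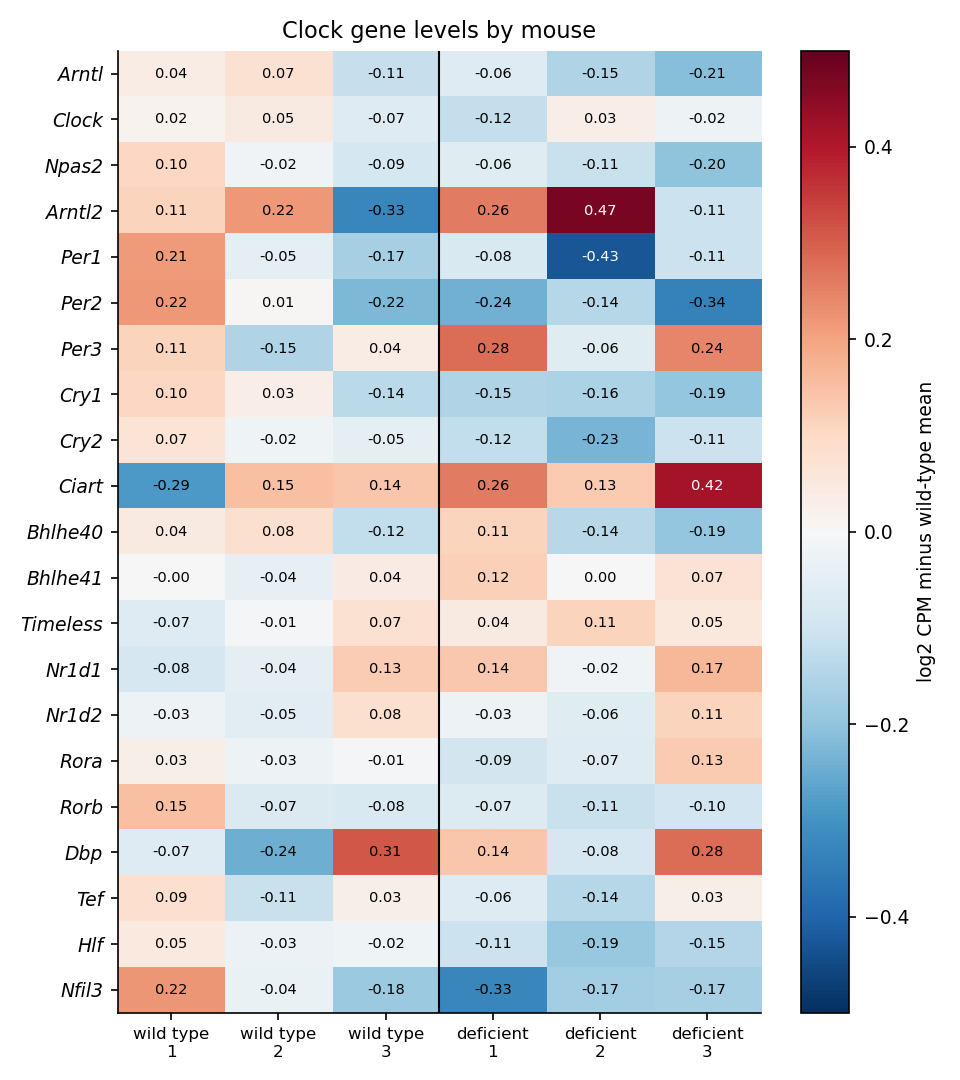
Each cell gives the log2 CPM of a clock gene (rows) in a mouse (columns, 3 wild-type then 3 deficient) minus the wild-type mean of that gene, in red above it and blue below. Wild-type mouse 3 and deficient mouse 3 are alike in Dbp (0.31 and 0.28), Nr1d1 (0.13 and 0.17) and Per2 (-0.22 and -0.34).

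Phase-opposed genes were then set against each other mouse by mouse. The wild-type mean of each gene was subtracted from its log2 CPM, and the result was averaged over Arntl, Clock and Npas2 and over Per1, Per2, Per3, Nr1d1 and Dbp. The Arntl arm stood at -0.08, -0.07 and -0.15 in deficient mice 1, 2 and 3 and at 0.06, 0.03 and -0.09 in wild-type mice 1, 2 and 3. Wild-type mouse 3 was again among the deficient values. The Per and Dbp arm stood at 0.05, -0.15 and 0.05 in deficient and at 0.08, -0.10 and 0.02 in wild-type mice, with deficient mouse 2 and wild-type mouse 2 each lowest in their group. The second arm minus the first was 0.13, -0.07 and 0.20 in deficient and 0.03, -0.13 and 0.11 in wild-type mice. Its mean was 0.08 ± 0.14 in deficient and 0.00 ± 0.12 in wild-type mice (SD, n = 3 each), a difference of 0.08 that is smaller than either SD, and 0.14 without wild-type mouse 3. The values are given as a description, with no test. Within the second arm the log2 fold changes differed in sign, negative for Per1 and Per2 and positive for Per3, Nr1d1 and Dbp, and none passed the test. In deficient mouse 2 all 5 genes lay below their wild-type means. With the narrow arms (Arntl and Npas2 against Per2, Per3, Nr1d1 and Dbp) deficient mouse 2 stood at 0.05 and wild-type mouse 1 at -0.03, each with the sign turned, and the difference between genotypes was 0.16. It was 0.03 without deficient mouse 3, 0.16 without deficient mouse 2 and 0.02 without wild-type mouse 2 in the wider arms.

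**Figure D4:**
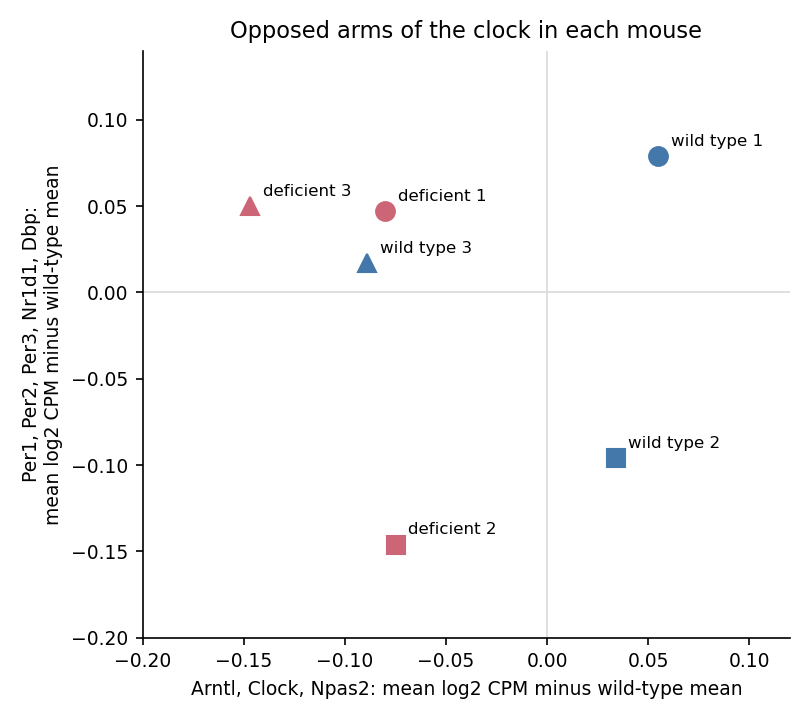
Mean log2 CPM after subtracting each gene's wild-type mean, for Arntl, Clock and Npas2 (horizontal axis) and for Per1, Per2, Per3, Nr1d1 and Dbp (vertical axis) in each mouse. Wild-type mouse 3 (-0.09, 0.02) lies beside deficient mouse 1 (-0.08, 0.05), and mouse 2 of each genotype is lowest on the vertical axis.

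Across the 6 mice Arntl was compared with each of the other 9 genes, and no relation held after adjustment. The closest were Cry1 (Pearson r = 0.90, exact permutation p = 0.0167, adjusted p = 0.15; Spearman rho = 0.89, exact permutation p = 0.0333, adjusted p = 0.263) and Per2 (r = 0.82, exact permutation p = 0.0472, adjusted p = 0.212; rho = 0.71, exact permutation p = 0.136, adjusted p = 0.263). Nr1d1 and Dbp ran the opposite way, with r = -0.71 (exact permutation p = 0.147, adjusted p = 0.22; rho = -0.71, exact permutation p = 0.136, adjusted p = 0.263) and r = -0.72 (exact permutation p = 0.121, adjusted p = 0.22; rho = -0.54, exact permutation p = 0.297, adjusted p = 0.382). Per3 was the third with a negative sign, at r = -0.42 (rho = -0.31), and Clock, Per1, Cry2 and Hlf had r of 0.32, 0.63, 0.68 and 0.75 (rho of 0.31, 0.77, 0.66 and 0.66), with exact permutation p of 0.103 to 0.525 for r and 0.103 to 0.564 for rho over these 5 genes. The mice farthest from the median of Arntl were wild-type mice 1 and 2. Without both of them r was 0.83 for Cry1, 0.42 for Per2, -0.02 for Nr1d1 and -0.13 for Dbp. Leaving out the extremes of Arntl narrows its range, which can by itself bring r nearer to 0, so this does not settle what the relations rest on. Without wild-type mouse 1 alone r was 0.94, 0.84, -0.595 and -0.695 for these genes. Without wild-type mouse 2 alone it was 0.89, 0.85, -0.63 and -0.51. Centred within each genotype, r was 0.80 for Cry1, 0.66 for Per2, -0.59 for Nr1d1 and -0.76 for Dbp. Without wild-type mouse 3 it was 0.90, 0.81, -0.70 and -0.75. All values of a mouse come from 1 library and share its scaling.

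**Figure D5:**
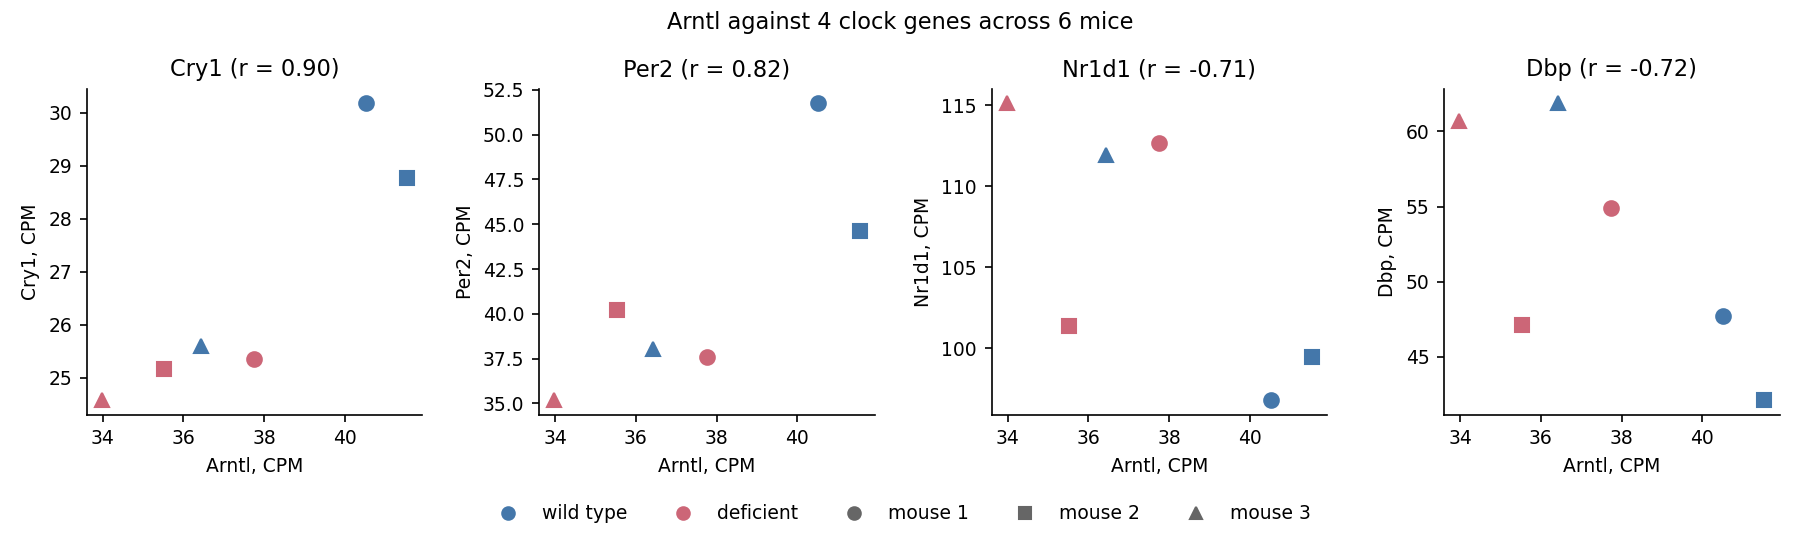
Level of Cry1, Per2, Nr1d1 and Dbp (vertical axes, CPM, not from 0) against that of Arntl (horizontal axes, CPM, not from 0) in 6 mice, coloured by genotype and marked by mouse number. Wild-type mice 1 and 2 are highest in Arntl, Cry1 and Per2 and among the lowest in Nr1d1 and Dbp.

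The wider machinery of the clock gave no call either. Of 49 listed genes (activators, repressors, nuclear receptors, bZIP factors, kinases and ubiquitin ligases, and cofactors; the 10 genes included) 48 had a row and were tested, and 0 passed 5% FDR with edgeR, DESeq2 or limma-voom. At an unadjusted edgeR p under 0.05, 6 were lower, against 3.30% of all genes tested, and 0 higher, against 2.56%. The 48 genes had a median log2 fold change of -0.03, with 30 negative and 18 positive. Ep300, a cofactor gene for an acetyltransferase that assists the activators, had a log2 fold change of -0.10 (SE 0.05). Among 11 tested kinases and ubiquitin ligases the smallest p belonged to Fbxw11, a ligase subunit that targets PER proteins, at 0.09 (SE 0.06), and to Gsk3b, a kinase of several clock proteins, at -0.04 (SE 0.05).

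Transcripts that clocks or other daily signals drive were laid beside these values. Of 16 rhythmic output genes 8 had positive and 8 negative log2 fold changes (median 0.00), with Tspan4 at 0.20 (SE 0.10) and Cdkn1a, a cell cycle inhibitor, at -0.19 (SE 0.09). Of 12 glucocorticoid-responsive genes 5 were positive and 7 negative (median -0.01), with Ddit4, a stress-induced inhibitor of mTOR signalling, at -0.22 (edgeR adjusted p = 0.729, SE 0.08). Markers of the suprachiasmatic nucleus summed to 79.1 to 90.0 CPM in deficient and 84.1 to 85.7 CPM in wild-type mice. Of 11 listed, 8 were tested and 5 of those were positive (median 0.03), with the vasopressin gene Avp at 0.17 (SE 0.12) and Six3 at -0.17 (SE 0.10). Many of these markers are also made elsewhere in the brain.

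Immediate early genes, which neurons switch on with activity as they do Per1, had mostly negative log2 fold changes beside those of Per1 and Per2. Of 20 listed 17 had negative log2 fold changes (median -0.23), 5 were lower at an unadjusted edgeR p under 0.05, against 3.30% of all genes tested, and 0 passed 5% FDR, against 0.0333% lower over all genes. Relative to the wild-type mean the list stood at -0.23, -0.36 and -0.29 in deficient mice 1, 2 and 3 and at 0.20, -0.04 and -0.16 in wild-type mice 1, 2 and 3. Deficient mouse 2 was lowest and wild-type mouse 1 highest, the same ends as for Per1. Fos had a log2 fold change of -0.72 (edgeR adjusted p = 0.117, SE 0.12). The summed level of the list was 626 to 706 CPM in deficient and 702 to 957 CPM in wild-type mice, and its part in the Per values was not tested. Cerebellar markers had positive log2 fold changes in 10 of 12 (median 0.14), and 5 of the 12 were higher at an unadjusted edgeR p under 0.05, against 2.56% of all genes tested, with 0 past 5% FDR. Among them Zic1, a transcription factor gene, had a log2 fold change of 0.26 (edgeR adjusted p = 0.435, SE 0.06) and Grm4, a glutamate receptor gene, one of 0.22 (edgeR adjusted p = 0.502, SE 0.06), both with no overlap between the groups. Groups without overlap and higher in the deficient mice were found for 5.70% of all genes tested. The cerebellar list summed to 2633 to 3178 CPM in deficient and 2628 to 2918 CPM in wild-type mice. The striatal list summed to 918 to 1039 CPM in deficient and 968 to 1016 CPM in wild-type mice. Of the 9 striatal genes 7 were negative and 0 were at an unadjusted edgeR p under 0.05, against 3.30% lower and 2.56% higher over all genes tested. All 7 blood markers had positive log2 fold changes (median 0.31), 2 of them at an unadjusted edgeR p under 0.05, against 2.56% higher over all genes tested. The 7 blood markers summed to 63.6 to 86.3 CPM in deficient and 52.5 to 67.0 CPM in wild-type mice. The 6 choroid plexus markers summed to 653 to 1045 CPM in deficient and 805 to 1214 CPM in wild-type mice, highest in mouse 3 of each genotype. Of these 6, 5 had negative log2 fold changes. At an unadjusted edgeR p under 0.05 there were 0, against 3.30% lower and 2.56% higher over all genes tested. The part of these tissues in the clock values was not tested.

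Genes whose pattern over the 6 mice was most like the difference between the arms were sought among 3166 other genes that spanned at least 0.5 on the log2 scale. The 4 with the highest Pearson r were Gm26559 (0.99), Ttc39a (0.99), Gm26798 (0.98) and Pcsk2os1 (0.97), and the 4 with the lowest were Ckap2l (-0.97), Zfp677 (-0.96), Dnah7c (-0.95) and Lrrc26 (-0.94). Ttc39a stood at 7.90, 6.50 and 8.52 CPM in deficient mice 1, 2 and 3 and at 6.83, 5.69 and 7.70 CPM in wild-type mice 1, 2 and 3, lowest in mouse 2 of each genotype. With 6 points and this many genes, such values describe these libraries only. Ciart had an r of 0.41 and ranked 722 on the same scale.

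In the authors' deposited table, where positive log2 fold changes mean higher in wild type, none of the 10 genes passed 5% either. There Hlf had a log2 fold change of 0.13 with an adjusted p of 0.559, Cry2 one of 0.12 with 0.937 and Per2 one of 0.14 with 0.954 in the authors' deposited table. For all 10 the genotype with the higher value was the one found here, but both comparisons use the same 6 libraries, so this adds no separate support. The sizes are not alike: Per2 stood at 0.14 there and at -0.25 (deficient over wild type) here with edgeR. The DESeq2 fit run here also gave -0.25 for Per2, with a DESeq2 p of 0.0141 beside the deposited 0.014. The reason for the difference in size was not tested.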

How the data were processed

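Gene expression was measured by RNA sequencing of 6 mouse brains (column-purified total RNA, Illumina TruSeq libraries, per the labels' protocols). The authors deposited 1 column of raw counts per mouse for each gene symbol; the build GRCm38 and DESeq2 are named in the submitters' processing notes, with aligner, counter, annotation and strandedness not given in the sources used here. Beside them the authors deposited a DESeq2 comparison with log2 fold changes (wild type over deficient), p-values and adjusted p-values, per the file headers.

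Mice were grouped by title. The deficient libraries 1, 2 and 3 totalled 22485616, 24531408 and 20170254 counts, the wild-type libraries 1, 2 and 3 totalled 22853547, 18542590 and 23871215. A chi-square of 3.94 to 7.92 per degree of freedom between libraries showed no duplicate. The test on the counts was that of edgeR 4.0.16 (R 4.3.3; TMM scaling, default filter, robust quasi-likelihood F test, two-sided) with Benjamini-Hochberg adjustment across the 15030 genes tested and a threshold of 0.05. SE is the size of the log2 fold change (deficient over wild type) over the square root of F, and 95% intervals use the t distribution with the fitted degrees of freedom. Log2 CPM used a prior count of 2. The code was checked on simulated counts. The edgeR p-values set the difference between genotypes against the spread between these mice, with 1 library per mouse. No label says that a mouse number marks a litter or day, and the numbers were not used as pairs.

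The 10 genes and all lists were chosen with earlier results of these data known. Named are the 10, all other activators, repressors, nuclear receptors and bZIP factors, the 2 or 3 genes of smallest p in a further list, and 4 genes at each end of the likeness to the arms. Some listed genes are counted but not reported here by name. Of 183 listed genes 181 matched by symbol and 1 by an older one. Positions and exon lengths come from GENCODE release M21 (GRCm38), promoters from RefSeq; a near-identical copy is a transcript at least 95% identical over 200 bases. Of the rows, 27 carry a number in place of a symbol (0.35% of counts) but hold counts like other genes, and they stayed in the totals and tests. Alternatives were RLE size factors, no filter, a mean of at least 1 CPM, DESeq2 1.42.0, limma-voom (limma 3.58.1), a block for mouse number, leaving out each mouse, a threshold of 0.10, a prior count of 0.5 and other arms.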

Additional observations from a re-analysis of the deposited data

How the results depend on the processing

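No clock gene passed 5% FDR under any alternative run, nor did any of the 48 pathway genes, and the count was 0 with each mouse left out. Of the 10 log2 fold changes 8 kept their sign in all 12 alternatives. Clock ran from -0.072 to 0.003 and Dbp from -0.02 to 0.27 when 1 mouse was left out, changing sign without deficient mouse 1 and without wild-type mouse 2, and the cause was not tested. The difference between the arms was 0.02 to 0.16 with 1 mouse left out. Without wild-type mice 1 and 2, the correlation of Arntl with Clock was -0.70 and with Per3 0.088; it ran from -0.64 to 0.019 for Per3 and from 0.01 to 0.54 for Clock with 1 mouse left out. The count of clock genes lower at an unadjusted p under 0.05 was 3 with limma-voom, 4 with DESeq2 or no filter and 6 with the replicate block. The set of genes changed too: with DESeq2 Arntl and Cry1 left it and Per1 entered. No share of all genes was taken for these settings, so the counts cannot be set against one. The block called 0 of the 10, 0 of the 48 and 15 of all genes, against 7 of all genes without it. With the block the arm difference was 0.08 ± 0.02 (SD over 3 number pairs). Deviations from the group means correlated at -0.00063, 0.08 and 0.05 between mice of the same number. Deficient mouse 1 correlated best with wild-type mouse 3 (0.07), while deficient mice 2 and 3 each correlated best with the wild-type mouse of their own number. Values this small do not settle whether the numbers mark pairs. They were not taken as pairs because no label says so. The number of calls over all genes was 25 with no filter, 20 with DESeq2 and 3 to 17 with 1 mouse left out. At 3 mice per group the differences seen here did not pass the adjustment over all genes; the SE of the 10 log2 fold changes ran from 0.046 to 0.175, so the precision differs by gene.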
